A study of Drosophila melanogaster with 14 samples.

Results

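The trunk and terminal gap genes of *Drosophila melanogaster* were followed at the RNA level in embryos of different age, in nuclear and cytoplasmic extracts, and in embryos of *grp* and *Slbp* mutant mothers. The 7 genes were taken by symbol, hb, Kr, kni, knrl, gt, tll and hkb, out of the 15288 genes listed in both tables of normalized read counts (15682 in either table). All 7 were found in both tables and all 7 passed the filter for testing, a mean of at least 5 normalized counts in at least 1 group. Nuclear extracts and cytoplasmic extracts came from *wt* Oregon R embryos of 90 to 180 min after egg laying (min AEL), and whole *wt* Oregon R embryos of 0 to 45 min AEL gave the early syncytial group. Embryos of 0 to 180 min AEL were collected from mothers with the alleles grp fs1, or the *Slbp* combination 10/12 or 10/15, mated to *wt* Oregon R males, and from *wt* Oregon R. The paternal gene copies of these embryos were therefore *wt*. *grp* encodes the checkpoint kinase Chk1, and *Slbp* the protein that binds the stem-loop of histone mRNAs. Each of the 7 groups has 2 libraries. Nothing in the labels shows that the 2 replicates of a group are independent collections, and the p-values given here cover only the spread between these libraries, which may be technical.

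Gap genes are the first zygotic genes of the segmentation cascade. They encode transcription factors that are made in broad domains of the syncytial blastoderm under the control of maternal gradients such as Bicoid, Caudal and Hunchback, repress one another, and position the stripes of the pair-rule genes. hb, which encodes a zinc finger protein, is the member with a maternal mRNA as well as a zygotic one. Kr (a zinc finger protein), kni (a protein of the nuclear receptor family) and gt (a basic leucine zipper protein) act in the trunk, with further domains in the head. knrl is a neighbouring relative of kni and encodes a protein of the same family. tll (a nuclear receptor) and hkb (a zinc finger protein) are switched on at the poles by the maternal receptor kinase Torso and specify the terminal regions.

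The libraries held 17368684 to 33866670 reads. In the mutant table *grp* stood at 2059 and 1718 normalized counts in grp fs1 libraries, against 14113 and 13306 in *wt* libraries, and *Slbp* at 186 to 262 in the 4 Slbp libraries, against 2776 and 2873 in *wt* libraries. The markers of the extracts went partly against their names: the spliceosomal and other small nuclear RNAs summed to 73732 and 70197 normalized counts in nuclear libraries, against 714919 and 1151179 in cytoplasmic libraries, while 80 of 89 mRNAs of cytosolic ribosomal proteins were lower in nuclear than in cytoplasmic extracts (limma, adjusted p under 0.05). The extracts are called here as labelled. Over all genes compared, the spread between the 2 replicates, as a chi-square per gene, was largest in cytoplasmic extracts. It was 438 in cytoplasmic, 33.4 in nuclear and 8.05 in early libraries, and 12.1 to 19.1 in the groups of the mutant table. This measure grows with the number of reads and does not give the relative spread of the members. For gt the higher replicate was 2.72-fold the lower in early and 1.45-fold in cytoplasmic libraries. Kr, kni, tll and hkb were also more uneven in early than in cytoplasmic libraries. hb (1.09-fold in early, 1.48-fold in cytoplasmic) and knrl (1.23-fold and 1.54-fold) went the other way. A list of 11 muscle genes was chosen as a marker of embryos older than these collections. It summed to 43230 and 15213 normalized counts in nuclear, 6047 and 31819 in cytoplasmic and 37198 and 33132 in early libraries. In the other table it summed to 31.7 and 4132 in grp fs1, 54.0 and 72.5 with Slbp 10/12, 134 and 108 with Slbp 10/15, and 24613 and 27645 in *wt* libraries. The *wt* libraries therefore carried more of these RNAs than all 6 mutant libraries, and the early libraries lay within the range of the extracts of later embryos. Each library is a bulk sample, in which fewer expressing nuclei or embryos and less RNA per nucleus cannot be told apart.

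The members lie on 4 chromosome arms in the annotation BDGP6.54, a later release than the dm3 build on which the authors counted the reads. hb (FBgn0001180) spans 6.843 kb on 3R from 8690980 to 8697822, with 2 annotated transcripts and a longest intron of 3.153 kb. Kr (FBgn0001325) lies on 2R from 25226611 to 25231394, gt (FBgn0001150) on X from 2427113 to 2428967, tll (FBgn0003720) on 3R from 30852315 to 30854400, and hkb (FBgn0261434) on 3R from 4345015 to 4346646. kni (FBgn0001320), on 3L from 20692330 to 20695378, and knrl (FBgn0001323), on 3L from 20597141 to 20620659, are separated by 71.67 kb and are transcribed from the same strand. knrl stands apart in size. Its span of 23.519 kb, with a longest intron of 15.117 kb, compares with spans of 1.632 kb (hkb) to 6.843 kb (hb) for the other members.

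Levels of different genes were compared per length. In *wt* embryos of 0 to 180 min AEL hb was the most abundant member, with 54.4 ± 1.61 FPKM (SD, n = 2), a unit that the authors obtained by dividing by gene length. gt followed with 11.6 ± 0.86 FPKM, Kr with 11.1 ± 0.386 FPKM and kni with 11.1 ± 0.219 FPKM (SD, n = 2 each), and the levels of these 3 neighbours overlapped. tll stood at 9.34 ± 0.742 FPKM, hkb at 5.18 ± 0.426 FPKM and knrl at 1.90 ± 0.122 FPKM (SD, n = 2 each), each below the libraries of the gene before it. hb was also first in every other group, and knrl last. In normalized counts per kb, hb had 1294 in nuclear, 716 in cytoplasmic and 788 in early libraries, and knrl 97.1, 8.62 and 10.9 in the same groups. In early embryos the next member after hb was Kr, with 42.7 normalized counts per kb. hb made up 85.3% and 89.3% of the summed normalized counts of the 7 members in early libraries, against 60.8% and 59.3% in *wt* libraries of 0 to 180 min AEL, 35.6% and 37.7% in nuclear libraries and 48.6% and 35.6% in cytoplasmic libraries.

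The extracts of 90 to 180 min AEL were set against whole early embryos to ask which of the members gain RNA by the blastoderm stage. Stage and extract cannot be told apart in these comparisons. In nuclear extracts 6 of the 7 members were higher than in early embryos (limma, adjusted p under 0.05), where 8.35% of the 10335 genes tested were higher. The libraries of all 7 lay above both early libraries, as for 35.3% of all genes. The log2 fold changes of the 7 had a median of 4.16, against 0.09 over all genes tested. In cytoplasmic extracts 5 of the 7 were higher, where 17.8% of all genes were, with a median of 3.60 against 0.00. The same count of members had both cytoplasmic libraries above both early libraries, as had 36% of all genes. The nuclear and the cytoplasmic comparison share the early libraries.

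**Figure D1:**
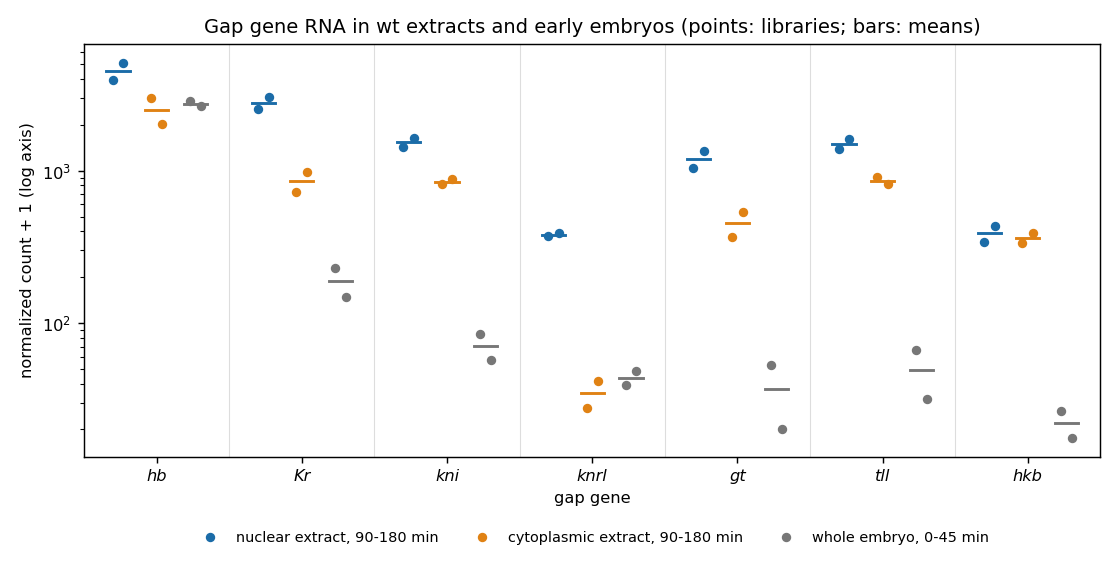
Normalized counts plus 1 of each gap gene (log axis) in nuclear and cytoplasmic extracts of *wt* embryos of 90 to 180 min AEL and in whole *wt* embryos of 0 to 45 min AEL. Points are libraries and bars are means of 2. For Kr, kni, gt, tll and hkb both early libraries lie below all 4 extract libraries, whereas hb is high in every library and knrl is low in both the cytoplasmic and the early libraries.

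Kr had 2549 and 3037 normalized counts in nuclear and 720 and 984 in cytoplasmic libraries, against 230 and 147 in early libraries. Its log2 fold change, on the scale of log2(normalized count + 1), was 3.91 (SE 0.35) for nuclear and 2.19 (SE 0.35) for cytoplasmic extracts against early embryos, with limma adjusted p-values of 4.94e-07 and 0.000189. The 3 groups of Kr libraries did not overlap. kni had 1433 and 1650 normalized counts in nuclear and 811 and 881 in cytoplasmic libraries, against 84.1 and 55.9 in early libraries. kni was thus higher by 4.47 (SE 0.36, limma adjusted p = 2.54e-07) and 3.60 log2 units (SE 0.36, limma adjusted p = 2.78e-06). gt had 1045 and 1349 normalized counts in nuclear and 367 and 533 in cytoplasmic libraries, against 52.3 and 19.2 in early libraries. The nuclear difference of gt, 5.18 log2 units (SE 0.46, limma adjusted p = 5.69e-07), was the largest of the 7 members in that comparison, and its cytoplasmic difference was 3.75 (SE 0.46, limma adjusted p = 2.02e-05).

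Both terminal genes were higher in either extract than in early embryos. tll had 1381 and 1607 normalized counts in nuclear and 901 and 817 in cytoplasmic libraries, against 65.4 and 30.6 in early libraries, a log2 fold change of 5.02 (SE 0.40) and 4.23 (SE 0.40) with limma adjusted p-values of 2.33e-07 and 1.54e-06. hkb had 341 and 433 normalized counts in nuclear and 335 and 389 in cytoplasmic libraries, against 25.2 and 16.6 in early libraries. For hkb the nuclear and cytoplasmic differences were alike in size, 4.16 (SE 0.45, limma adjusted p = 3.49e-06) and 4.07 log2 units (SE 0.45, limma adjusted p = 7.20e-06).

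hb and knrl had other patterns. hb had 3931 and 5114 normalized counts in nuclear and 2986 and 2016 in cytoplasmic libraries, against 2870 and 2639 in early libraries. Its early level was thus already in the range of the cytoplasmic extracts, from which it did not differ beyond the spread (log2 fold change -0.17, 95% interval -0.82 to 0.48, limma adjusted p = 0.696). The nuclear libraries of hb lay above both early libraries, but the difference of 0.70 log2 units (SE 0.31) did not pass the test (limma adjusted p = 0.116). It did pass with upper quartile scaling, with only the groups compared, and without either cytoplasmic library. knrl had 371 and 388 normalized counts in nuclear and 26.5 and 40.8 in cytoplasmic libraries, against 38.3 and 47.2 in early libraries. It was higher in nuclear extracts than in early embryos by 3.13 log2 units (SE 0.49, limma adjusted p = 0.000153), whereas cytoplasmic and early libraries overlapped (log2 fold change -0.36, 95% interval -1.40 to 0.69, limma adjusted p = 0.587). knrl was no longer called against early embryos without either nuclear library.

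**Figure D2:**
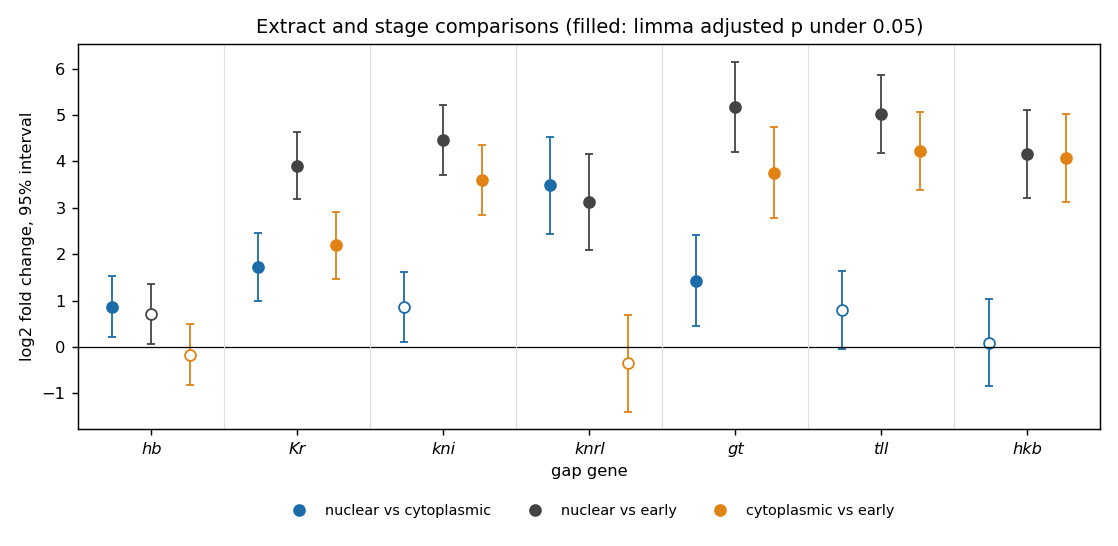
Log2 fold change of each gap gene in 3 comparisons of *wt* material, with the 95% interval of limma's fit; filled points have an adjusted p under 0.05. Kr, kni, gt, tll and hkb lie above 2 in both comparisons with early embryos, hb lies within 1 of zero in all 3 comparisons, and knrl is high only where nuclear extracts are compared.

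Nuclear extracts were then set against cytoplasmic extracts of the same age, to compare the RNA levels relative to other genes. Each library was normalized without a measure of the RNA mass of an extract. The fold changes therefore do not give how the molecules of a gene divide between the extracts. Of the 7 members 4 were higher in nuclear extracts (limma, adjusted p under 0.05), where 26.9% of all genes tested were. The median log2 fold change was 0.87 for the members and 0.24 for all genes. knrl differed most. With the counts given above, it was 11.3-fold higher between group means, a log2 fold change of 3.49 (SE 0.49, 95% interval 2.44 to 4.53, limma adjusted p = 2.30e-05). Kr followed with a log2 fold change of 1.72 (SE 0.35, limma adjusted p = 0.000487), gt with 1.42 (SE 0.46, limma adjusted p = 0.0159) and hb with 0.87 (SE 0.31, limma adjusted p = 0.0243). The libraries of kni did not overlap between the extracts, with a log2 fold change of 0.86 (SE 0.36), but the test was just missed (limma adjusted p = 0.0509). tll had a log2 fold change of 0.80 (SE 0.40, limma adjusted p = 0.101), also without overlap. hkb was the member whose libraries overlapped between extracts, at 0.09 log2 units (95% interval -0.85 to 1.03, limma adjusted p = 0.871). The libraries of 6 of the 7 members were thus separated with nuclear extracts above, as they were for 39.7% of all genes.

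The calls for hb, gt, kni and tll depended on the method or on single libraries, while Kr and knrl kept theirs under all 15 alternatives. hb was not called with only the groups compared (limma adjusted p = 0.0819), without either early library or without either nuclear library. gt was not called without cytoplasmic replicate 1 (1.15 log2 units) or without either nuclear library (1.61 and 1.24). kni was called when at least 5 was required in every library (limma adjusted p = 0.0376), which made 5 members. With edgeR, DESeq2 or upper quartile scaling kni and tll were both called higher in nuclear extracts, so that 6 members were. Without nuclear replicate 1 or without nuclear replicate 2 the count was 2, and without 1 of the other 4 libraries it was 3 to 5. knrl remained the member with the largest fold change, between 3.18 and 3.89 log2 units over the 15 alternatives.

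The extract difference was also read against the size of the genes. A span in BDGP6.54 was found for 9916 of the 10335 genes tested (95.9%). Over these, the median log2 fold change of nuclear against cytoplasmic extracts was -0.37 for the 3725 genes under 2 kb, 0.08 for the 3150 genes of 2 to 5 kb, 0.69 for the 1334 genes of 5 to 10 kb, 1.25 for the 844 genes of 10 to 20 kb, and 1.61 for the 863 genes of at least 20 kb. Genes are not independent replicates, and no test was made of this order. Within its own class of long genes knrl lay above the upper quartile, 2.39, and 106 of the 9916 genes had a higher value than knrl. gt, with a span of 1.855 kb, lay above the upper quartile of its class, 0.78, and Kr, with 4.784 kb, above that of its class, 1.20. hb, kni, tll and hkb lay within the middle 50% of their classes. By the score of the study's methods, in which the normalized counts of nuclear extracts are doubled and divided by the sum over early, cytoplasmic and nuclear groups, knrl had 1.66, Kr 1.46, gt 1.42, kni 1.25, tll 1.24, hkb 1.01 and hb 0.93.

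**Figure D3:**
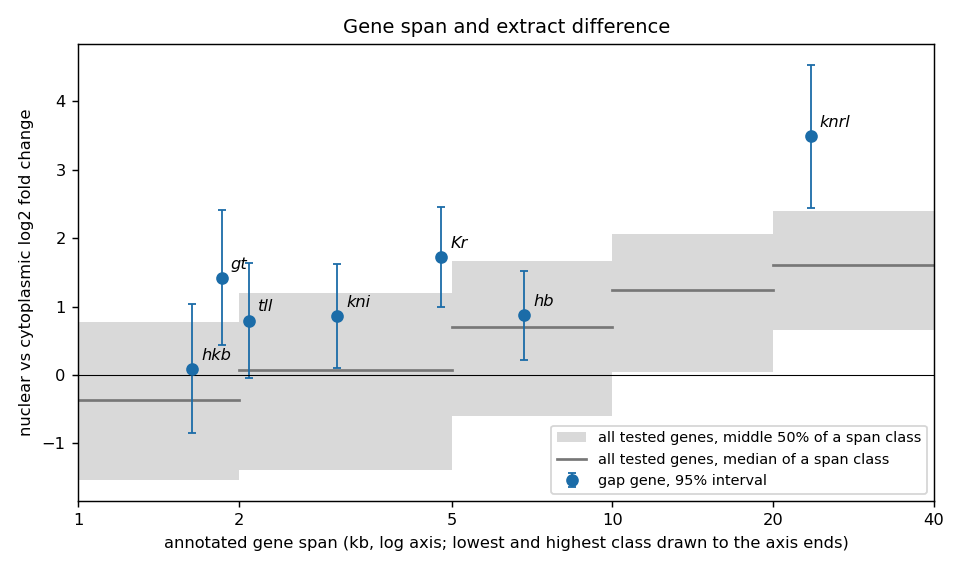
Log2 fold change of nuclear against cytoplasmic extracts for the 7 gap genes (points, 95% interval) by the span of the gene in kb (log axis), over the median and middle 50% of all tested genes in 5 classes of span. The medians of the classes go up from -0.37 to 1.61, and knrl, gt and Kr lie above the middle 50% of their classes.

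The mutants were compared with *wt* embryos of 0 to 180 min AEL to ask whether the members lose RNA without maternal Chk1 or SLBP. The mean of every member but hb was far below *wt* in each mutant. By limma at an adjusted p under 0.05, 6 of the 7 members were lower in grp fs1 than in *wt*, where 28.7% of the 9868 genes tested were lower. In Slbp 10/12 the count was 5 of 7, against 33% of all genes, and in Slbp 10/15 7 of 7, against 38.9% of all genes. Both mutant libraries lay below both *wt* libraries for 6 members in grp fs1 (46.8% of all genes), for 7 in Slbp 10/12 (49% of all genes) and for 7 with Slbp 10/15 (53% of all genes). The median log2 fold change of the members was -2.90 in grp fs1, -4.08 in Slbp 10/12 and -3.22 for Slbp 10/15, beside -0.10, -0.11 and -0.19 over all genes. By the rule of the study, a mean at least 4-fold lower than in *wt*, the members selected were 6 of 7 in each mutant, all but hb, where 24%, 28% and 27.3% of 9672 genes were selected in grp fs1 and in the Slbp combinations 10/12 and 10/15. The 3 comparisons share the *wt* libraries.

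**Figure D4:**
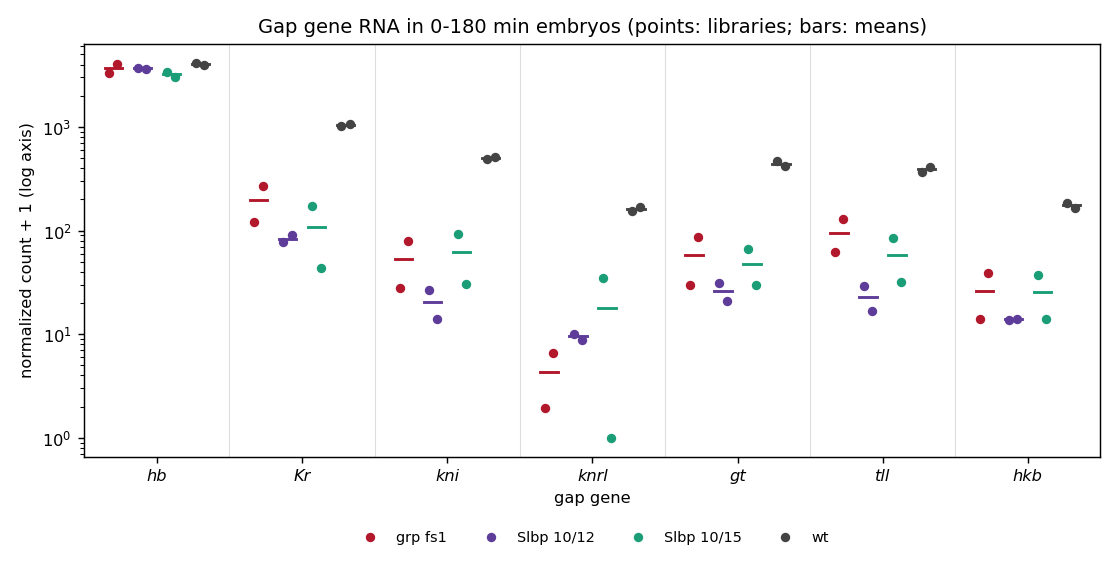
Normalized counts plus 1 of each gap gene (log axis) in embryos of 0 to 180 min AEL, with grp fs1 left, then the 2 Slbp combinations, and *wt* right. Points are libraries and bars are means of 2. All 6 mutant libraries lie below both *wt* libraries for Kr, kni, knrl, gt, tll and hkb, while hb lies between 3048 and 4161 normalized counts in all 8 libraries.

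Among the trunk genes, Kr had 119 and 270 normalized counts in grp fs1, 76.0 and 89.1 in Slbp 10/12, then 171 and 42.6 in Slbp 10/15, against 1025 and 1077 in *wt* libraries. Kr fell by 2.54 log2 units in grp fs1 (SE 0.63, limma adjusted p = 0.0174), by 3.66 in Slbp 10/12 (SE 0.63, limma adjusted p = 0.00397) and by 3.60 for Slbp 10/15 (SE 0.63, limma adjusted p = 0.00341). The means of Kr were 18.5%, 7.86% and 10.2% of *wt* in the 3 mutants in this order. kni had 27.1 and 78.2 normalized counts in grp fs1, 25.6 and 13.1 in Slbp 10/12, then 92.2 and 29.7 in Slbp 10/15, against 492 and 506 in *wt* libraries. Its log2 fold changes were -3.41 (SE 0.68), -4.69 (SE 0.68) and -3.22 (SE 0.68) in these mutants, with limma adjusted p-values of 0.00824, 0.00234 and 0.00667. gt had 28.9 and 85.7 normalized counts in grp fs1, 30.2 and 20.1 in Slbp 10/12, then 64.8 and 28.7 in Slbp 10/15, against 465 and 419 in *wt* libraries. The gt means were thus 13.0%, 5.69% and 10.6% of *wt*, with log2 fold changes of -3.12, -4.11 and -3.32 (SE 0.59 each, limma adjusted p = 0.00681, 0.00229 and 0.00361).

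knrl was the member with the fewest reads. It had 0.933 and 5.65 normalized counts in grp fs1, from 1 and 6 reads, and 9.15 and 7.86 in Slbp 10/12, from 10 and 9 reads. In Slbp 10/15 it had 34.0 normalized counts, from 31 reads, in replicate 1 and 0 in replicate 2, where a count of 0 allows up to 3 reads or 2.97 normalized counts. *wt* libraries had 152 and 167 normalized counts, from 131 and 153 reads. All mutant libraries were therefore below *wt*, but the log2 fold changes carried the widest error of the members, -5.48 in grp fs1, -4.08 in Slbp 10/12 and -4.76 for Slbp 10/15 (SE 1.49 each). This SE rests on 1 estimate of the spread shared by all genotypes, the uneven Slbp 10/15 libraries included. With only the groups compared it was 0.73 in grp fs1 and 1.79 in Slbp 10/15. knrl passed the test in grp fs1 (limma adjusted p = 0.0239) and Slbp 10/15 (limma adjusted p = 0.0284) and missed it in Slbp 10/12 (limma adjusted p = 0.0560), where it was called with edgeR (adjusted p = 0.0423), with DESeq2 (adjusted p = 0.0103) and with a pseudocount of 5 in limma (adjusted p = 0.0102). In Slbp 10/15 knrl was not called with edgeR (adjusted p = 0.0732) or with only the groups compared (limma adjusted p = 0.0806). Its log2 fold change there was -7.33 without Slbp 10/15 replicate 1 (limma adjusted p = 0.00361) and -2.20 without replicate 2 (limma adjusted p = 0.0756).

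Both terminal genes fell as well. tll had 60.6 and 127 normalized counts in grp fs1, 28.4 and 15.7 in Slbp 10/12, then 84.5 and 30.7 in Slbp 10/15, against 367 and 410 in *wt* libraries. tll thus kept 24.2% of its *wt* mean in grp fs1, the highest share of the 6 falling members there, and 5.68% and 14.8% in Slbp 10/12 and Slbp 10/15. Its log2 fold changes were -2.13, -4.13 and -2.90 (SE 0.57 each, limma adjusted p = 0.0231, 0.00209 and 0.00541). hkb had 13.1 and 37.7 normalized counts in grp fs1, 12.8 and 13.1 in Slbp 10/12, then 36.2 and 12.9 in Slbp 10/15, against 184 and 164 in *wt* libraries. hkb fell by 2.90, 3.64 and 2.94 log2 units in the 3 mutants in the same order (SE 0.65 each, limma adjusted p = 0.0121, 0.00444 and 0.00781).

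hb kept most of its RNA. It had 3280 and 4083 normalized counts in grp fs1, 3692 and 3656 in Slbp 10/12, then 3375 and 3048 in Slbp 10/15, against 4161 and 3990 in *wt* libraries. In grp fs1 1 library lay within the *wt* range, and the log2 fold change was -0.16 (95% interval -0.40 to 0.09, limma adjusted p = 0.253). In Slbp 10/12 it was -0.15 (95% interval -0.39 to 0.09, limma adjusted p = 0.261), with both libraries just below *wt*. Upper quartile scaling gave hb -0.47 in grp fs1 (limma adjusted p = 0.0748), -0.53 with Slbp 10/12 (limma adjusted p = 0.0394) and -0.72 for Slbp 10/15 (limma adjusted p = 0.0101), so that all 7 members were called lower in Slbp 10/12, knrl included (limma adjusted p = 0.0231). The median of all genes moved down with it. In Slbp 10/15 hb fell by 0.35 log2 units (SE 0.10, limma adjusted p = 0.0237), to 78.8% of the *wt* mean. This call was lost with edgeR (adjusted p = 0.0530), without Slbp 10/15 replicate 2 (-0.27 log2 units) and without either *wt* library (-0.32 and -0.38). hb was called in grp fs1 without its replicate 2 (-0.31, limma adjusted p = 0.0226). The share of hb in the summed normalized counts of the 7 members was 87.1% to 95.8% in the 6 mutant libraries, against 60.8% and 59.3% in *wt* libraries.

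**Figure D5:**
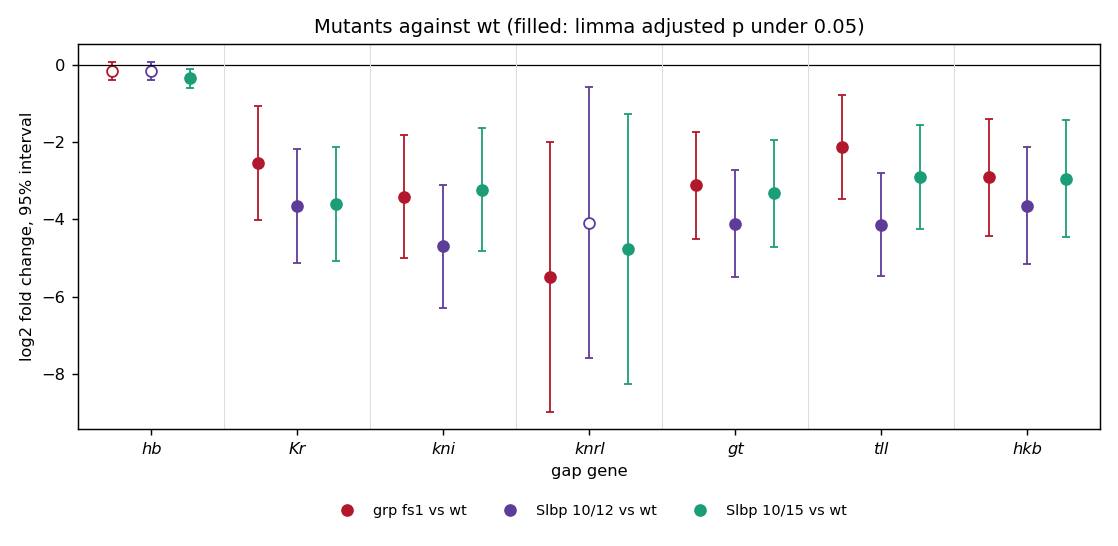
Log2 fold change of each gap gene in the 3 mutants (grp fs1 left) against *wt* embryos of 0 to 180 min AEL, with the 95% interval of limma's fit; filled points have an adjusted p under 0.05. hb lies between -0.35 and -0.15, and the other 6 members lie between -5.48 and -2.13 with overlapping intervals.

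The muscle genes moved with the mutants. The 11 genes summed to 31.7 to 134 normalized counts in 5 mutant libraries and to 4132 in grp fs1 replicate 2, against 24613 and 27645 in *wt* libraries, and 7 to 11 of the 11 were above 0 in each mutant library. A list of 6 neuronal genes summed to 6.53 to 82.3 normalized counts in the mutant libraries, against 976 and 1262 in *wt* libraries. The source of the muscle and neuronal RNAs was not tested, nor was the part of embryo age in the falls of the gap genes. The calls also rested on having both *wt* libraries. Without *wt* replicate 1 or *wt* replicate 2 limma called no member in grp fs1 (3 at an unadjusted p under 0.05 in either case), 3 and 4 in Slbp 10/12, and 0 and 2 for Slbp 10/15 (5 at an unadjusted p under 0.05 in either case), in fits with 1 *wt* library that is assumed to vary like the other groups. The median log2 fold change of the members stayed at -2.82 and -2.99 in grp fs1, at -4.03 and -4.02 in Slbp 10/12 and at -3.25 and -3.20 for Slbp 10/15. Without grp fs1 replicate 1, 2 of the 7 members were called in grp fs1.

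For the members, the replicates of 2 mutants were uneven. All 7 members were higher in grp fs1 replicate 2 than in replicate 1, hb by 1.25-fold and Kr, kni, gt, tll and hkb by 2.10-fold to 2.96-fold. The sums of the muscle genes, 4132 and 31.7 normalized counts, and of 9 pair-rule genes, 449 and 123, were higher in the same library. All 7 were also higher in Slbp 10/15 replicate 1 than in replicate 2, hb by 1.11-fold and Kr, kni, gt, tll and hkb by 2.26-fold to 4.02-fold. There the pair-rule sums were 682 and 190, while the muscle sums, 134 and 108, were close. In *wt* the replicates of every member were within 1.12-fold. The median share of the *wt* mean over the 6 members other than hb was 7.03% and 20.5% in the grp fs1 libraries, 7.03% and 4.74% in the Slbp 10/12 libraries, and 19.7% and 6.22% in the Slbp 10/15 libraries.

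The mutants were also compared with each other. Between grp fs1 and the mean of both Slbp mutants no member was called by limma, where 19.4% of all genes were higher and 16.3% lower, and 1 had an unadjusted p under 0.05. edgeR called none of them. tll had the largest difference, 1.39 log2 units higher in grp fs1 (95% interval 0.22 to 2.55, limma adjusted p = 0.0659), and it was called by DESeq2 (adjusted p = 0.0254) and with at least 5 required in every library (limma adjusted p = 0.0393), within a range of 0.0254 to 0.337 over the alternatives. For Kr the difference was 1.09 (95% interval -0.18 to 2.36, limma adjusted p = 0.162) and for hb 0.09 (95% interval -0.12 to 0.30, limma adjusted p = 0.454). Without Slbp 10/15 replicate 1, Kr and tll were called higher in grp fs1. Between Slbp 10/12 and Slbp 10/15 no member was called either by limma, edgeR or DESeq2, where limma had 1.81% of all genes higher and 1.48% lower, and 0 had an unadjusted p under 0.05. The largest difference was that of kni, -1.46 log2 units (95% interval -3.06 to 0.13, limma adjusted p = 0.261). Both Slbp 10/12 libraries lay below both Slbp 10/15 libraries for kni and tll (27.1% of all genes) and above them for hb (25.1% of all genes). Except for that of hb, these intervals leave room for differences of several-fold.

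Across all 14 libraries the members other than hb and knrl varied together. The Pearson correlation of log2 values of a member with the mean of the other 6 was 0.98 for Kr, 0.97 for kni, 0.98 for gt, 0.93 for tll and 0.95 for hkb, but 0.72 for knrl and 0.54 for hb. Over the 8 libraries of the mutant table alone it was 0.85 for knrl and 0.72 for hb, against 0.93 (tll) to 0.99 (hkb) for the others. These are descriptions over libraries that share groups and come from 2 tables normalized separately. Among 7255 genes compared, those most like the mean of the 7 members were D, a Sox transcription factor of the blastoderm (r = 0.991), Ance-2 (r = 0.991), Ac78C, an adenylate cyclase (r = 0.988), sna, the zinc finger repressor of the mesoderm (r = 0.987), the pair-rule gene h (r = 0.982) and the head gene croc (r = 0.982). The gene most like each member was ERp60 for hb (r = 0.936), D for Kr (r = 0.981), sna for kni (r = 0.990), ltl for knrl (r = 0.986), h for gt (r = 0.982), Sry-alpha for tll (r = 0.995) and ftz for hkb (r = 0.989). hb was the member with the lowest likeness to any gene. D, for example, had 61.6 and 174 normalized counts in grp fs1, 75.1 and 99.6 in Slbp 10/12, then 218 and 43.6 in Slbp 10/15, against 1219 and 1416 in *wt* libraries, with the same library higher in grp fs1 and in Slbp 10/15 as for the members.

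Lists of genes upstream of the members in the axis pathways were read beside the shares of all genes. Over all genes tested, 14.3% were higher and 28.7% lower in grp fs1, 15.6% and 33% with Slbp 10/12, and 20.1% and 38.9% for Slbp 10/15 (limma, adjusted p under 0.05). Of 11 maternal inputs, 2 were higher and 1 lower in grp fs1, 0 and 3 with Slbp 10/12, and 4 and 4 for Slbp 10/15, with medians of 0.16, 0.05 and 0.05. bcd, the source of the anterior gradient, had log2 fold changes of 0.02, 0.24 and 0.34 in grp fs1 and the Slbp combinations 10/12 and 10/15 (limma adjusted p = 0.905, 0.0757 and 0.0194). The strong exception was tsl, a gene of the terminal system that follicle cells use, with -3.87, -3.31 and -4.20 (limma adjusted p = 0.0168, 0.0242 and 0.00851). The libraries are of embryos and do not measure tsl RNA in follicle cells, and the cause of its fall was not tested. Of 9 genes that transduce the Torso signal, 2 were higher and 1 lower in grp fs1, 3 and 0 with Slbp 10/12, and 4 and 1 for Slbp 10/15, with ksr, a scaffold of the kinase cascade, higher by 0.97 log2 units in Slbp 10/12 (limma adjusted p = 0.000495). Of 9 activators and repressors of gap genes 3 fell in each mutant, D, grh and slp1, a share close to that of all genes. In the same list vfl, which encodes the pioneer factor Zelda, had log2 fold changes of 0.07, -0.24 and 0.14 (limma adjusted p = 0.685, 0.141 and 0.354). In nuclear against cytoplasmic extracts, where 26.9% of all genes were higher and 28.6% lower, 8 of these 9 were higher, vfl by 3.14 log2 units (limma adjusted p = 1.67e-06), whereas 5 of the 11 maternal inputs were lower, among them nos, the source of the posterior gradient (-2.95, limma adjusted p = 1.56e-05), and 2 were higher, among them bcd (2.04, limma adjusted p = 5.49e-05).

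Most head gap and pair-rule genes were lower in the mutants, with exceptions, while few gut genes passed the test. Of 6 head gap genes 5 were lower and 1, cnc, was higher in each mutant. oc, which patterns the head, had log2 fold changes of -2.87, -3.75 and -3.33 in the 3 mutants, in the order just used (limma adjusted p = 0.0300, 0.0101 and 0.0127), and cnc 0.24, 0.47 and 0.21 (limma adjusted p = 0.0152, 0.00135 and 0.0158). Of 9 pair-rule genes, the targets that read the gap domains, 8 were lower in each mutant, with medians of -3.92, -3.90 and -3.00. opa, the ninth, had -5.30, -3.38 and -4.80 and did not pass the test (limma adjusted p = 0.0590, 0.180 and 0.0639). Against early embryos 9 of 9 pair-rule genes were higher in nuclear and 8 of 9 in cytoplasmic extracts. Of 3 genes of the gut primordia that act under tll and hkb, byn, fkh and srp, fkh was lower in Slbp 10/12 and Slbp 10/15 (-4.27 and -5.19, limma adjusted p = 0.0241 and 0.00984) and none was called in grp fs1, while all 3 were higher in nuclear than in cytoplasmic extracts and than in early embryos.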

How the data were processed

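RNA of 14 libraries, 2 per group, was depleted of ribosomal RNA and sequenced on a HiSeq. Per the paper and the submitters' notes, the authors checked reads with FastQC 0.10.1, aligned them to dm3 (BDGP5.78) with TopHat, counted genes with featureCounts and divided by size factors, for which the notes name DESeq and the paper its successor DESeq2. The deposited signal is this normalized count. The FPKM values, made by the authors from gene length and 1 constant for all libraries, served only to rank genes. Whether counting used strand is not given in the sources used here. Whole reads, obtained by dividing a library's values by their smallest step (100% of values whole within 0.01 reads), entered depth, edgeR 4.0.16 and DESeq2 1.42.0 only. Counting floors cover counting error only.

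Each table was normalized in its own right and tested alone. A gene was tested if any group averaged 5 or more, with limma 3.58.1 under R 4.3.3. The values were log2(normalized count + 1), a scale that understates folds of low genes. The fit had a trended variance, all groups of the table and no block, and tests were two-sided, with Benjamini-Hochberg adjustment over all genes tested per comparison (threshold 0.05). There were 8 comparisons. By the labels the replicate numbers pair no samples. The 7 members, the lists and the tests were chosen with earlier results of these data known. All members are named. Of lists, the text gives counts and examples, some chosen after their values were seen. Gene spans came from BDGP6.54, in which 15002 of 15682 gene identifiers were found. Promoters and proteins were not analysed here. Scripts were tested on simulated data. Results were recomputed with a pseudocount of 5, without the filter, with 5 or more required in all libraries, with upper quartile scaling, with a replicate block, with DESeq2, with edgeR, with only the groups compared, and without each library in turn.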

Additional observations from a re-analysis of the deposited data

How the results depend on the processing

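No alternative turned the direction of a member called in a comparison with *wt*, early embryos or cytoplasmic extracts. Against early embryos, 5 members stayed higher in cytoplasmic extracts under all 15 alternatives, and 5 to 7 in nuclear extracts. In nuclear against cytoplasmic extracts 4 members were higher, 6 with edgeR, DESeq2 or upper quartile scaling, 5 with at least 5 in every library, 3 with only the groups compared and 2 to 5 when 1 library was left out. In Slbp 10/12 7 members were lower with upper quartile scaling, against 5. In the mutants, leaving out 1 library gave 0 to 7 members lower in grp fs1, 3 to 6 in Slbp 10/12 and 0 to 7 for Slbp 10/15. Between grp fs1 and the Slbp mean, 1 member, tll, was higher with DESeq2 and with at least 5 in every library, and leaving out 1 library gave 0 to 2 higher and 0 to 1 lower. The cause of these changes was not tested.

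Some log2 differences that were not called changed sign. When 1 library was left out, hb in cytoplasmic extracts against early embryos ran from -0.45 to 0.12, hb in grp fs1 against *wt* from -0.31 to 0.0031, and hkb in nuclear against cytoplasmic extracts from -0.082 (-0.016 without cytoplasmic replicate 1) to 0.26. In grp fs1 against the Slbp mean the ranges were -0.17 to 1.36 for gt, -0.066 to 0.25 for hb, -0.34 to 1.12 for hkb, -0.20 to 1.30 for kni and -2.35 to 0.22 for knrl. In Slbp 10/12 against Slbp 10/15 they were -1.42 to 0.0096 for hkb, -1.05 to 0.94 for Kr (0.057 without Slbp 10/12 replicate 1) and -1.88 to 3.25 for knrl, which was also -0.050 with a pseudocount of 5, -0.96 with edgeR and -0.995 with DESeq2.

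With upper quartile scaling the all-gene median was -0.41 in grp fs1, -0.49 in Slbp 10/12, -0.56 for Slbp 10/15 and 0.64 in nuclear against cytoplasmic extracts, against -0.10, -0.11, -0.19 and 0.24. The genes higher than *wt* then numbered 176, 174 and 238, against 1407, 1539 and 1979, and those lower 3771, 5197 and 5241, against 2836, 3256 and 3837. In nuclear extracts 1883 genes were then higher than in early embryos, against 863, and 1653 with only the groups compared. Relative to the all-gene median the members stood at -2.80, -3.95 and -3.03. The scaling divides all values of a library by 1 constant, so these differences could hardly change and are no check of the result. DESeq2 called 1614, 2208 and 2602 genes lower than *wt*, and the filter of at least 5 in every library, under which knrl was not tested, 955, 1032 and 1578. With a replicate block the members called were 4, 5 and 6 in the extract and stage comparisons and 6, 5 and 7 in the mutants, and no count of members changed. Deviations of samples with the same number correlated at -0.51 between extracts, -0.11 between early and nuclear, -0.20 between grp fs1 and Slbp 10/15 and -0.03 to 0.09 otherwise, so that the numbers were not taken as pairs. With the numbers of the cytoplasmic extracts crossed, chosen after seeing the data, 5 members were higher in nuclear than in cytoplasmic extracts. In the mutants the depth limits knrl, with 0 to 31 reads a library.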

Other observations

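Other patterning and timing genes were read against the share of all genes lower than *wt*, 28.7% in grp fs1, 33% with Slbp 10/12 and 38.9% for Slbp 10/15. Of 8 Hox genes, which the gap genes regulate, 8 were lower in grp fs1, 7 in Slbp 10/12 and 7 for Slbp 10/15 than in *wt* (limma, adjusted p under 0.05), and Ubx had log2 fold changes of -7.22, -5.12 and -6.53. All 8 were higher in nuclear than in cytoplasmic extracts, Ubx by 2.41 log2 units and Antp by 3.10. Of 5 genes that neuroblasts use in temporal order, a series in which hb and Kr act again, 5 were lower in each mutant, with medians of -5.24, -4.96 and -4.89 in the 3 mutants in this order. Of 5 genes of cellularization, 2 were lower in grp fs1, not far from the share of all genes, and 5 in each Slbp combination, and Sry-alpha, which is needed to form cells at the blastoderm stage, had log2 fold changes of -2.02, -3.85 and -2.91 (limma adjusted p = 0.0336, 0.00305 and 0.00660).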
